A study of Mus musculus with 9 samples.

Results

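The genes of prostaglandin synthesis and reception described here are 10 of the 40548 genes in the deposited tables of mouse calvarial cells, chosen by name: the cyclooxygenases Ptgs1 and Ptgs2, the terminal synthases Ptges, Ptgis and Ptgds, the inactivating dehydrogenase Hpgd, and the receptors Ptger2, Ptger3, Ptger4 and Ptgfr. RNA-seq was performed on cells released from the calvaria of C57BL/6 pups (C57BL/6J, wild type or ColI-GFP, in the methods) aged 2 to 3 days, before differentiation (day 0) and after 4 or 7 days of differentiation with β-glycerol phosphate and ascorbic acid added (day 4 and day 7), with 3 biological replicates per stage and 9 libraries in all. No group carried a transgene, deletion or drug that the labels name, and the stages differ in days of differentiation and in how the cells were lifted for RNA. Mineralized cultures were first treated with collagenase, whereas cultures without mineral were lifted with trypsin alone, so digestion and stage cannot be told apart. For cells that were reseeded, the methods give collagenase before trypsin at both day 4 and day 7. The cultures are primary cells of mixed origin, and the labels do not say which pups entered which library.

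Prostaglandins are made when arachidonic acid, freed from membrane lipids, is turned into prostaglandin H2 by a cyclooxygenase, and a terminal synthase then makes prostaglandin E2, D2, F2α or prostacyclin from it. They leave the cell and act on G protein-coupled receptors of the same or a neighbouring cell, and EP2 and EP4, the receptors encoded by Ptger2 and Ptger4, raise cAMP. In bone, prostaglandin E2 is known both to stimulate bone formation and, through RANKL made by osteoblast lineage cells, to stimulate bone resorption.

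Reads counted on genes, recovered from the deposited CPM (reads scaled to the reads on all genes), numbered 7741204 to 14013219 per library at day 0, 32820610 to 37306090 at day 4 and 10675858 to 15622755 at day 7. The libraries of day 4 lie in separate tables and were sequenced more deeply, so day 4 was compared with the other stages by level and overlap only, without a test. A difference of day 4 from the other stages cannot be told apart from one that came with its separate handling or depth. Among the osteoblast markers, 7 of 8 rose from day 0 to day 7, beside 12.6% of all genes tested. The matrix gene Ibsp rose most (log2 fold change 9.43), while Runx2 did not pass the test (log2 fold change 0.23). The predicted gene Gm42418 took 11.97% of the reads in day 0 replicate 3 and 8.12% in day 7 replicate 2, against 0.11% to 3.04% in the other libraries. Leaving these 2 libraries out, a check added after the values were seen, left every call on the prostaglandin genes in place.

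Day 7 was tested against day 0 with limma on log2(CPM + 0.5), with p-values adjusted by the Benjamini-Hochberg method over the 12712 genes that averaged 1 CPM or more, and a threshold of 0.05. Of the 10 genes, 8 were tested, 6 rose (Hpgd, Ptgis, Ptger4, Ptgs2, Ptges and Ptgs1), 1 fell (Ptgfr) and Ptger2 did not pass. Of all genes tested, 12.6% rose and 18.6% fell, together 31.2%. The median log2 fold change of the 8 genes was 1.06, beside −0.11 for all genes tested. Without overlap between libraries, day 7 exceeded day 0 for 6 of the 8 tested genes, beside 16.9% of the genes past the CPM filter, and was below it for 0 of the 8 (25.4%). Day 4 exceeded day 0 in the same sense for 7 of the 8 (21.6% past the filter) and was below it for 0 (21.9%). Here and below, shares that involve day 4 are over the 12782 genes that averaged 1 CPM or more over all 9 libraries. From day 4 to day 7, Hpgd alone of the 8 was higher in all libraries (13.6%), and 3 genes were lower in all (25.0%). Of the 2 genes under the filter, Ptger3 exceeded day 0 at both later stages and Ptgds was below it at day 7. In bulk RNA, more cells of a type and more RNA per cell cannot be told apart.

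These 3, Ptgs1, Ptgs2 and Ptger2, had all day 4 libraries above every library of day 0 and day 7, where 8.07% of the genes past the filter did so. Hpgd exceeded both earlier stages in turn, a stepwise order found in 3.07% of genes. The sequences of the 250 bases before the start of these 4 genes are shown because the 4 make up the patterns the results turn on. They come from RefSeq on GRCm38.p6, where 9 of the 10 genes had a promoter entry and Ptgis had none. Each runs 5′ to 3′ on the strand of its gene, and capitals mark matches to the motifs searched. Ptgs2 lies on the forward strand at chr1:150099781-150100030, Ptgs1 on the forward strand at chr2:36230176-36230425, Ptger2 on the forward strand at chr14:44987861-44988110 and Hpgd on the forward strand at chr8:56294302-56294551.
Ptgs2: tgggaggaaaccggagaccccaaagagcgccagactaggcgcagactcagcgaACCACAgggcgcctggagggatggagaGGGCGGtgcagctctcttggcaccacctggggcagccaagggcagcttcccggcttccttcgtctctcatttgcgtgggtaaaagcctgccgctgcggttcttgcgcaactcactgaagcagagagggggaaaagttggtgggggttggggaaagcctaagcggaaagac
Ptgs1: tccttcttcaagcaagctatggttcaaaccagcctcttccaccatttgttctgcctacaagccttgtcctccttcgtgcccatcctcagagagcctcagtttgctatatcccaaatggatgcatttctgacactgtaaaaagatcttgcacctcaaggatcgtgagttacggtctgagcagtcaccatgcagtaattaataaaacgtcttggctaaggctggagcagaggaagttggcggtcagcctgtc
Ptger2: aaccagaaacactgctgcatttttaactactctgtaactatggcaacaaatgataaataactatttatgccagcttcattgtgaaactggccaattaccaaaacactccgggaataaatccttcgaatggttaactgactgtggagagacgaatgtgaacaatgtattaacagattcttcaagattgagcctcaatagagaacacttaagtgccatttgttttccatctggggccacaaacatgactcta
Hpgd: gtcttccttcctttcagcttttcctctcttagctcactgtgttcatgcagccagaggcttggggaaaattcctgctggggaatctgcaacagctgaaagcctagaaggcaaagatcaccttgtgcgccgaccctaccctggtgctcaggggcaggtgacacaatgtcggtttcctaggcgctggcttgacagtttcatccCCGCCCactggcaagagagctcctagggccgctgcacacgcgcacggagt

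The motifs searched on both strands were TATAAA (the TATA box), TGACG (the core of the cAMP response element), CACGTG (an E-box), TGANTCA (the AP-1 site), TGTGGT (the core of the Runx site) and GGGCGG (the GC box). In the Ptgs2 window, the capitals ACCACA are a TGTGGT match on the reverse strand, 197 to 192 bases before the start, and GGGCGG lies 170 to 165 bases before it. TGTGGT was held by 14.05% and GGGCGG by 32.74% of the 32851 promoters. No motif matched in the Ptgs1 and Ptger2 windows, and that of Hpgd held a single GGGCGG match on the reverse strand, 50 to 45 bases before the start. Ptger4 had 4 matches to GGGCGG, of which those starting 148 and 143 bases before the start overlap by 1 base, and no other window of the 9 genes had as many. TGACG, present in 17.77% of all promoters, matched in none of the 9 windows, and TATAAA (12.37%) and CACGTG (6.02%) matched in none either, while TGANTCA (6.75%) matched in that of Ptgds alone. GC content was 61.6% for Ptgs2, 56.8% for Hpgd, 48.0% for Ptgs1 and 38.0% for Ptger2, beside a median of 52.4% over all promoters. A match is a description of letters in this window, and none was tied to an expression value. Bases outside these windows were not searched, so a motif without a match here can still lie on either side of them.

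Ptgs2, the inducible cyclooxygenase, located at 150100031 to 150108227 of chromosome 1 (GRCm38, forward strand), was highest at day 4. Its levels were 14.1, 9.07 and 9.13 RPKM (CPM divided by the length of the gene in kilobases) in day 0 replicates 1 to 3, then 87.8, 90.6 and 109.6 RPKM at day 4, and 32.5, 27.2 and 19.5 RPKM at day 7. The stages did not overlap, with day 0 lowest, day 7 between and day 4 highest. Mean levels were 10.8 ± 2.88, 96.0 ± 11.9 and 26.4 ± 6.50 RPKM in order of stage (SD, n = 3 each), so that day 4 was 8.92-fold above day 0. Day 7 was 1.29 above day 0 on the log2 scale, with a standard error of 0.18 (limma adjusted p = 5.58e-08).

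Ptgs1, the cyclooxygenase most cells make constitutively, on chromosome 2 from 36230426 to 36252272 on the forward strand, followed the same order of stages at a lower level. It had 3.27, 4.41 and 3.22 RPKM at day 0, 9.24, 11.0 and 11.7 RPKM at day 4, and 5.56, 6.17 and 6.16 RPKM at day 7. The day 7 libraries all lay between those of day 0 and those of day 4. Its day 4 mean was 2.93-fold that of day 0 and 1.79-fold that of day 7, and its rise from day 0 to day 7 was 0.71 on the log2 scale, with a standard error of 0.18 (limma adjusted p = 0.00167). Within each library Ptgs2 stood above Ptgs1, with geometric mean ratios of RPKM of 2.93, 9.01 and 4.34 in order of stage. The log2 ratio averaged 1.55 ± 0.54 before differentiation and 2.12 ± 0.44 at day 7 (SD, n = 3 each), and these stages overlapped (exact permutation test, two-sided p = 0.2, adjusted over 3 ratios p = 0.2). At day 4 it was 3.17 ± 0.11 (SD, n = 3), above every library of the other stages.

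A list of 12 genes held immediate early genes, known to respond within minutes to tissue digestion, and the heat shock genes Hspa1a and Hspa1b. Of the 12, 10 exceeded day 0 in all day 4 libraries (21.6% past the filter), while Hspa1a and Hspa1b overlapped it. In all day 4 libraries, 8 of the 12 exceeded both other stages (8.07%). The summed level of the list was 234 to 279.7 CPM at day 0, 587 to 721 CPM at day 4 and 326 to 443 CPM at day 7. At day 7, 5 of the 12 were higher than at day 0 (12.6% of all genes tested), 1 was lower (18.6%) and 6 did not pass, with a median log2 fold change of 0.53. Ier3, which responds to stress and NF-κB, rose most (log2 fold change 1.41), and the zinc finger factor Egr1 fell (log2 fold change −0.83, limma adjusted p = 2.66e-04). Ptgs2 is itself an immediate early gene in many cells. The part of this list in the day 4 levels of Ptgs2, Ptgs1 and Ptger2 was not tested.

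**Figure D1:**
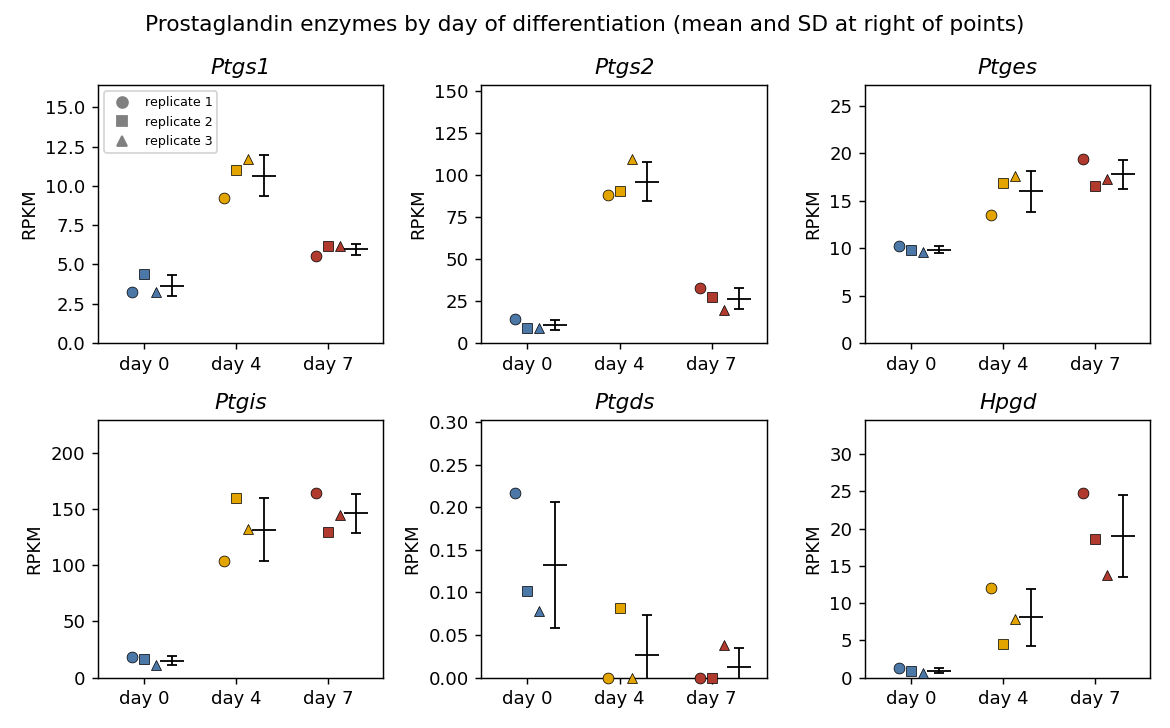
RPKM of the 6 enzyme genes in each library by day, with a mark for each replicate and the mean and SD (n = 3, bars cut at 0) to the right of the points. Ptgs1 and Ptgs2 are highest at day 4, Ptgis is at 104 to 159.5 RPKM at day 4 and 129.6 to 164 at day 7, Hpgd steps up at both intervals, and Ptgds stays below 0.22 RPKM.

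Ptges, the inducible microsomal synthase of prostaglandin E2, on chromosome 2 from 30889471 to 30929863 on the reverse strand, differed less between stages. It had 10.2, 9.78 and 9.56 RPKM at day 0, 13.5, 16.9 and 17.6 RPKM at day 4, and 19.5, 16.6 and 17.3 RPKM at day 7. All libraries of day 4 and day 7 lay above those of day 0, and the later stages overlapped. The rise from day 0 to day 7 was 0.84 on the log2 scale, with a standard error of 0.16 (limma adjusted p = 2.82e-05), or 1.81-fold in mean RPKM.

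Ptgis, the cytochrome P450 enzyme that makes prostacyclin, on chromosome 2 from 167191805 to 167240604 on the reverse strand, had the highest mean RPKM of the 6 enzymes at every stage. It was at 18.0, 16.7 and 11.2 RPKM at day 0, at 104, 159.5 and 132 RPKM at day 4, and at 164, 129.6 and 145 RPKM at day 7. The day 0 libraries stood far below the rest, and day 4 and day 7 overlapped. Mean RPKM at day 7 was 9.57-fold that of day 0 (log2 fold change 3.27 with a standard error of 0.16, limma adjusted p = 4.59e-22). Ptgis shares 6.08% of its exon bases with a gene on the opposite strand.

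Relative to Ptgis, Ptges stood lower at day 4 and day 7 than before differentiation. In geometric mean ratio, Ptges stood at 0.658 of the RPKM of Ptgis at day 0, at 0.122 at day 4 and at 0.122 at day 7. The log2 ratio was −0.60 ± 0.33, −3.03 ± 0.18 and −3.04 ± 0.06 in order of stage (SD, n = 3 each). Every day 7 value lay below every day 0 value, with a difference of −2.43 (two-sided exact permutation p = 0.1, below which 3 libraries against 3 cannot go, adjusted p = 0.15).

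Ptgds, the lipocalin-type synthase of prostaglandin D2, on chromosome 2 from 25466709 to 25470046 on the reverse strand, was close to the limit of detection. Day 0 libraries gave 5, 2 and 1 reads for it, the deeper day 4 libraries 0, 5 and 0, and day 7 libraries 0, 0 and 1. Day 0 lay above day 7 in every library, and the summed reads per read on genes were 9.48-fold those of day 7, with a 95% counting interval of 1.27 to 421. At day 0 against day 4 the ratio was 5.04, with an interval of 1.45 to 19.6, although a day 4 library overlapped day 0. Ptgds did not reach the CPM filter of the test, and when every gene with reads entered, its log2 fold change was −0.45 (limma adjusted p = 0.0294). Ptgds is a known product of the leptomeninges, the membranes under the skull. Of 10 markers of these membranes, 3 were tested, 2 of which rose (12.6% of all genes tested). The transporters Slc6a13, Slc22a6 and Slc22a8 had a mean of 0.0233 RPKM or less at every stage. The summed level of the 10 was 16.7 to 24.2 CPM at day 0, 34.2 to 40.2 CPM at day 4 and 27.2 to 30.2 CPM at day 7. Most of this sum was Tbx18 (12.9, 12.7 and 12.9 mean CPM in order of stage) and Crabp2 (6.73, 20.7 and 11.0). Aldh1a2, which makes retinoic acid, rose most (log2 fold change 2.16), with 0.301, 3.01 and 3.13 mean CPM.

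Hpgd, the dehydrogenase that inactivates prostaglandin E2 and F2α, on chromosome 8 from 56294585 to 56321043 on the forward strand, rose most of the 10 genes. It had 1.33, 0.875 and 0.601 RPKM at day 0, 12.04, 4.46 and 7.84 RPKM at day 4, and 24.7, 18.6 and 13.8 RPKM at day 7. The stages did not overlap, although the 3 libraries of day 4 spread from 4.46 to 12.04 RPKM. The day 0 mean of 0.935 ± 0.367 RPKM and the day 7 mean of 19.0 ± 5.50 RPKM (SD, n = 3 each) were 20.4-fold apart, or 3.98 on the log2 scale with a standard error of 0.22 (limma adjusted p = 2.05e-20). Against Ptges, the synthase of its main substrate, Hpgd was far lower at day 0 and at a similar level at day 7. The geometric mean ratio of Ptges to Hpgd in RPKM was 11.1 before differentiation, 2.12 at day 4 and 0.959 at day 7. On the log2 scale this ratio averaged 3.47 ± 0.52 before differentiation and −0.06 ± 0.35 at day 7 (SD, n = 3 each), with no overlap (two-sided exact permutation p = 0.1, adjusted p = 0.15).

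**Figure D2:**
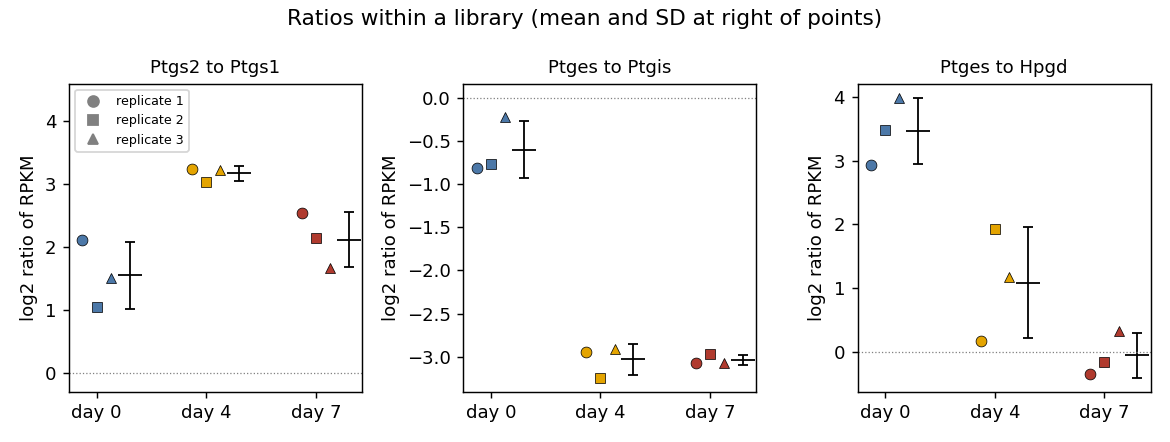
Log2 ratios of RPKM within each library for Ptgs2 to Ptgs1, Ptges to Ptgis and Ptges to Hpgd by day, with a mark for each replicate, the mean and SD (n = 3) to the right, and a dotted line at equal level. The first ratio peaks at day 4 with a mean of 3.17, the second sits near −3.03 from day 4 on, and the third goes from 3.47 at day 0 to −0.06 at day 7.

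Ordered by mean RPKM at day 0, the enzymes ran Ptgis, Ptgs2, Ptges, Ptgs1, Hpgd and Ptgds, and the libraries of Ptgis and Ptgs2 and those of Ptgs2 and Ptges overlapped. At day 4 the order was the same, with overlap between Ptgis and Ptgs2 and between Ptgs1 and Hpgd. At day 7 Hpgd, at 19.0 RPKM, stood between Ptgs2 and Ptges and overlapped both, while Ptgis, at 146 RPKM, no longer overlapped Ptgs2.

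Ptger4, the EP4 receptor for prostaglandin E2, on chromosome 15 from 5206661 to 5244187 on the reverse strand, rose with differentiation. It had 0.429, 0.428 and 0.272 RPKM at day 0, 0.916, 1.14 and 0.905 RPKM at day 4, and 1.54, 1.34 and 0.981 RPKM at day 7. Day 0 lay below all later libraries, and day 4 and day 7 overlapped through day 7 replicate 3. Mean RPKM at day 7 was 3.42-fold that of day 0 (log2 fold change 1.59 with a standard error of 0.23, limma adjusted p = 1.62e-07). With another gene or pseudogene on the opposite strand it shares 16.5% of its exon bases, and the sources do not state whether the strand of reads was used in counting.

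Ptger2, the EP2 receptor, on chromosome 14 from 44988195 to 45003820 on the forward strand, was high at day 4 alone. It had 0.542, 0.431 and 0.280 RPKM at day 0, 1.76, 1.58 and 1.99 RPKM at day 4, and 0.457, 0.356 and 0.504 RPKM at day 7. The day 4 mean of 1.78 ± 0.21 RPKM (SD, n = 3) was 4.25-fold that of day 0 and 4.05-fold that of day 7, and day 0 and day 7 overlapped. Between day 0 and day 7 the log2 fold change was 0.07, with a 95% interval of −0.46 to 0.61 (limma adjusted p = 0.867). The reads behind these levels were 8 to 28 per library at day 0, 213 to 265 at day 4 and 14 to 29 at day 7.

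Ptger3, the EP3 receptor, which lowers cAMP, on chromosome 3 from 157566892 to 157645888 on the forward strand, was barely detected at day 0. It had 2, 1 and 1 reads at day 0, 33, 48 and 28 at day 4, and 10, 9 and 7 at day 7. All libraries of day 4 and day 7 lay above those of day 0 in RPKM, and the later stages overlapped. The summed reads per read on genes at day 7 were 5.48-fold those of day 0, with a 95% counting interval of 1.90 to 21.6, and at day 4 they were 8.65-fold, with an interval of 3.28 to 32.3. Its mean RPKM was 0.485 ± 0.121 and 0.320 ± 0.097 at those later stages (SD, n = 3 each). Ptger3 did not reach the CPM filter of the test, and with every gene with reads included its log2 fold change was 0.91 (limma adjusted p = 0.00115).

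Ptgfr, the FP receptor for prostaglandin F2α, on chromosome 3 from 151796502 to 151837630 on the reverse strand, was the gene that fell. It had 1.06, 1.15 and 0.533 RPKM at day 0, 0.921, 0.510 and 0.547 RPKM at day 4, and 0.520, 0.429 and 0.543 RPKM at day 7. Day 0 replicate 3 lay within the range of day 7, so the stages overlapped (exact permutation test, two-sided p = 0.2). The log2 fold change was −0.70, with a standard error of 0.25 (limma adjusted p = 0.0290). This call did not hold with DESeq2 (adjusted p = 0.0582), with every gene with reads included (limma adjusted p = 0.124), or when a library was left out (0.128 for day 0 replicate 1, 0.194 for day 0 replicate 2, 0.0771 for day 7 replicate 1 and 0.0931 for day 7 replicate 2), and over all settings its adjusted p ranged from 0.00167 to 0.194.

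**Figure D3:**
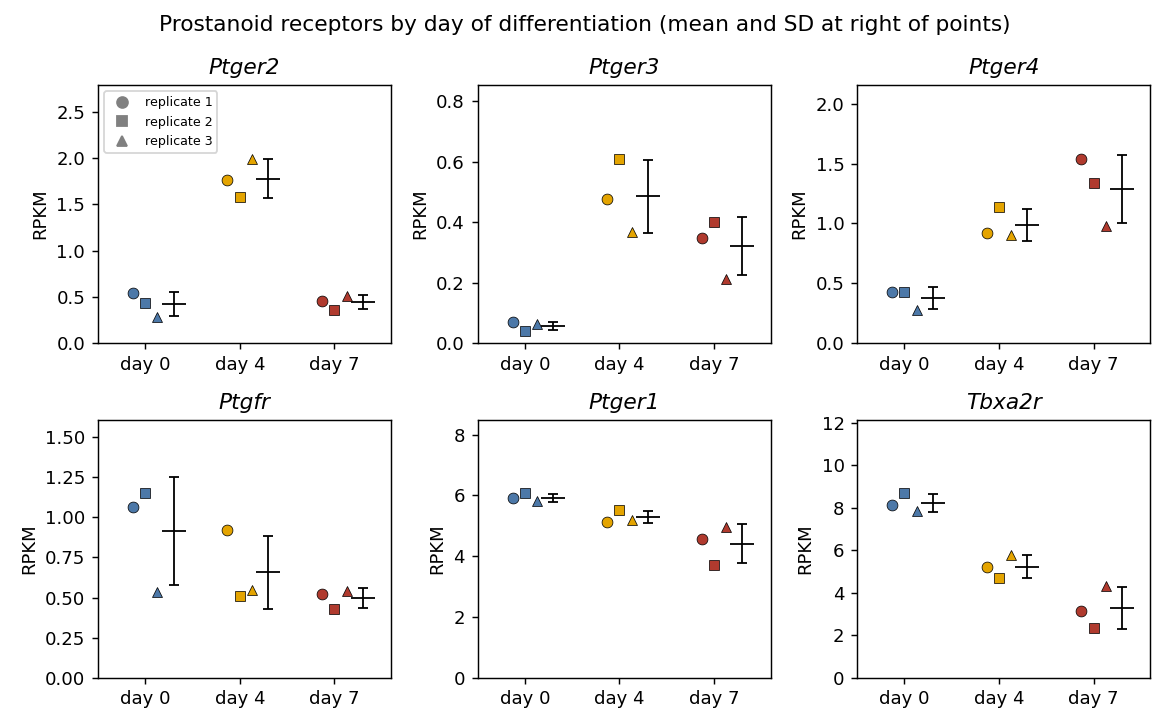
RPKM of 6 receptor genes in each library by day, with a mark for each replicate and the mean and SD (n = 3) to the right. Ptger2 is high at day 4 alone, Ptger4 is at 0.272 to 0.429 RPKM at day 0 and 0.981 to 1.54 at day 7, and Ptgfr and Tbxa2r go the other way, with overlap between stages for Ptgfr.

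The receptor genes Tbxa2r and Ptger1 stood higher than these 4 at every stage. At day 0, Tbxa2r, the thromboxane A2 receptor, had a mean of 8.21 ± 0.43 RPKM and Ptger1, the EP1 receptor, 5.93 ± 0.13 RPKM (SD, n = 3 each), against 0.915 for Ptgfr, 0.418 for Ptger2, 0.376 for Ptger4 and 0.0562 for Ptger3. The libraries of Ptgfr, Ptger2, the prostacyclin receptor gene Ptgir and Ptger4 overlapped with their neighbours in this order. At day 4 the order was Ptger1 at 5.29 and Tbxa2r at 5.23 RPKM, which overlapped, then Ptger2 at 1.78, separate from both neighbours, Ptger4 at 0.986, Ptgfr at 0.659, Ptger3 at 0.485 and Ptgir at 0.469 RPKM, each overlapping the next. At day 7 it was Ptger1 at 4.42 and Tbxa2r at 3.27, which overlapped, then Ptger4 at 1.29, separate from both neighbours, Ptgfr at 0.497, Ptger2 at 0.439, Ptger3 at 0.320 and Ptgir at 0.255 RPKM, again overlapping neighbours. Ptger2 thus stood above Ptger4 at day 4 and below it at day 7. The receptor genes of prostaglandin D2 were low throughout, with 0.0929, 0.120 and 0.151 mean RPKM for Ptgdr2 in order of stage and 0.0249 or less for Ptgdr. The level of Ptger1, and with it its rank and its steps between stages, is uncertain, as the use of strand in counting is not known.

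The other genes of the pathway and its lipoxygenase branch were taken in 5 lists, of whose genes 30 were tested, 8 rose and 5 fell, beside the 12.6% and 18.6% of all genes tested. Of 6 prostanoid receptors and receptor regulators, 4 were tested, and Tbxa2r fell (log2 fold change −1.29 with a standard error of 0.20, limma adjusted p = 1.35e-06), stepping down from 8.21 through 5.23 to 3.27 RPKM without overlap. Ptger1 had a log2 fold change of −0.43 and missed the threshold (limma adjusted p = 0.0502), with a step down at each stage and no overlap. The median of the 4 was −0.47, beside −0.11 for all genes.

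Of 17 genes for the release and storage of arachidonic acid, 10 were tested. Of these, 3 rose (12.6% of all genes tested) and 1 fell (18.6%), with a median log2 fold change of 0.22. Mgll, a lipase that frees arachidonate from monoacylglycerol, rose most, from 12.1 to 25.7 mean RPKM (log2 fold change 1.08, limma adjusted p = 2.51e-07). Pla2g4a, the cytosolic phospholipase A2 that supplies the cyclooxygenases in most cells, averaged 7.76, 16.2 and 11.4 RPKM in order of stage. Its day 4 libraries lay above all others, as for Ptgs1 and Ptgs2, and it rose from day 0 to day 7 (log2 fold change 0.56, limma adjusted p = 0.00627). Faah, which degrades anandamide, fell from 0.509 to 0.119 mean RPKM (log2 fold change −1.64, limma adjusted p = 1.93e-06).

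Of 7 other synthases, 6 were tested and 1 rose (12.6% of all genes tested), with a median of 0.27 for the list. The gene that rose was Fam213b, a prostamide and prostaglandin F synthase (log2 fold change 0.58, limma adjusted p = 0.0112). Fam213b did not pass without day 7 replicate 1 (limma adjusted p = 0.0936) or day 7 replicate 3 (0.0710). Ptges2 and Ptges3, the other genes named as prostaglandin E synthases, had log2 fold changes of 0.12 and −0.12 and did not pass (limma adjusted p = 0.638 and 0.628). Whether their changes differ from that of Ptges was not tested.

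Of 6 genes for transport and breakdown other than Hpgd, all tested, 1 rose (12.6% of all genes tested) and 3 fell (18.6%), with a median of −0.56. Slco2a1, the carrier that takes prostaglandins into cells for breakdown, rose (log2 fold change 1.00, limma adjusted p = 5.55e-04) and was highest at day 4, with 0.201, 0.759 and 0.449 mean RPKM at the 3 stages. Abcc4, an exporter of prostaglandins and cyclic nucleotides, fell from 5.43 to 1.97 mean RPKM (log2 fold change −1.41, limma adjusted p = 1.20e-08). The uptake carrier and the first enzyme of breakdown, Slco2a1 and Hpgd, thus both rose from day 0 to day 7, while the reductases of the next step did not, with a fall of Ptgr1 (log2 fold change −0.77) and no call for Ptgr2 (0.03).

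**Figure D4:**
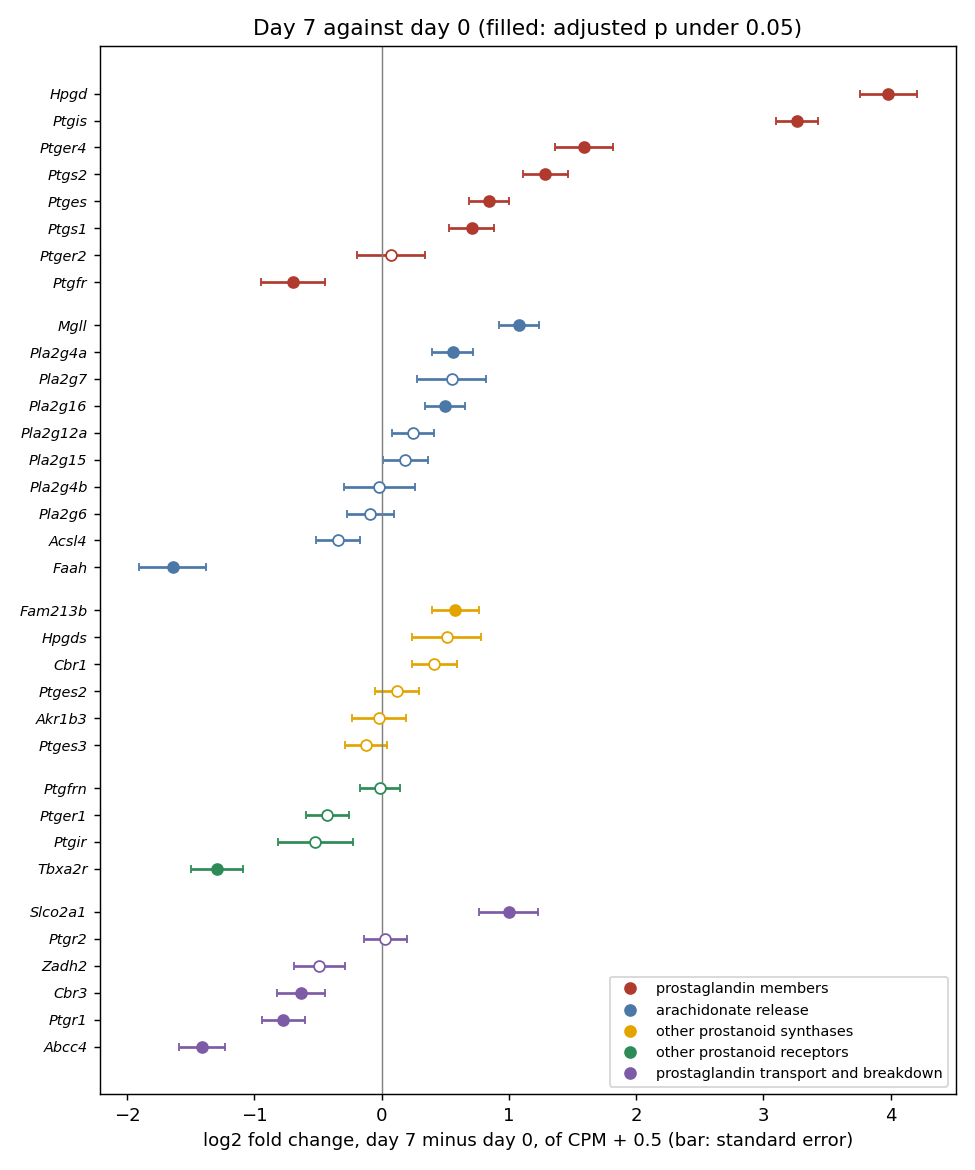
Change of log2(CPM + 0.5) between day 0 and day 7 with its standard error, for the 8 tested genes of the set and the tested genes of 4 pathway lists. Filled marks passed an adjusted p of 0.05 in limma; Hpgd at 3.98 and Ptgis at 3.27 lie furthest to the right and Faah at −1.64 and Abcc4 at −1.41 furthest to the left.

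Of 12 genes of the lipoxygenase and leukotriene branch, which use the same substrate, 4 were tested. Of these, 3 rose (12.6% of all genes tested), with a median of 1.00. Ephx2, which hydrolyses fatty acid epoxides, rose most (log2 fold change 1.18, limma adjusted p = 5.88e-05), and Alox15 was listed at 0 in all 9 libraries. Of 11 macrophage markers in the tables, 10 were tested and 10 rose (12.6% of all genes tested), with a median of 0.96 and a summed level of 65.6 to 114 CPM at day 0, 130.1 to 146 CPM at day 4 and 128 to 170.0 CPM at day 7. The leukocyte marker Ptprc rose most (log2 fold change 1.37, limma adjusted p = 2.13e-04), from 0.0366 to 0.129 mean RPKM, and did not pass on the RPKM scale (adjusted p = 0.157). Over all settings its adjusted p ranged from 2.19e-06 to 0.157. Macrophages express Ptgs1, Ptgs2, Ptges, Ptger4 and Alox5, and the part of these cells in the changes of the set was not tested. The endothelial markers Tie1 and Emcn were listed at 0 in all libraries, and the summed level of 8 such markers was 5.97 to 10.7 CPM over the 9 libraries. Most of this sum was Egfl7, with 7.68, 5.31 and 6.72 mean CPM in order of stage. The others averaged under 1 CPM at every stage. Endothelium is a known source of prostacyclin.

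A further list held textbook targets of cAMP, the second messenger of EP2 and EP4. Of 11 such genes in the tables, all tested, 11 exceeded day 0 in all day 4 libraries (21.6% past the filter) and 7 exceeded both other stages in all of them (8.07%). From day 0 to day 7, 6 of the 11 rose (12.6% of all genes tested) and none fell, by limma at an adjusted p of 0.05, with a median log2 fold change of 0.65. Tnfsf11, which encodes RANKL, the osteoclast differentiation factor, rose most and had 0.893, 0.449 and 0.693 RPKM at day 0, 7.73, 4.10 and 7.06 RPKM at day 4, and 2.59, 2.22 and 2.12 RPKM at day 7. Its stages did not overlap, in the same order as those of Ptgs2, and the log2 fold change from day 0 to day 7 was 1.52, with a standard error of 0.24 (limma adjusted p = 1.85e-06). Several of these genes are also immediate early genes, and the part of cAMP in their levels was not tested.

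**Figure D5:**
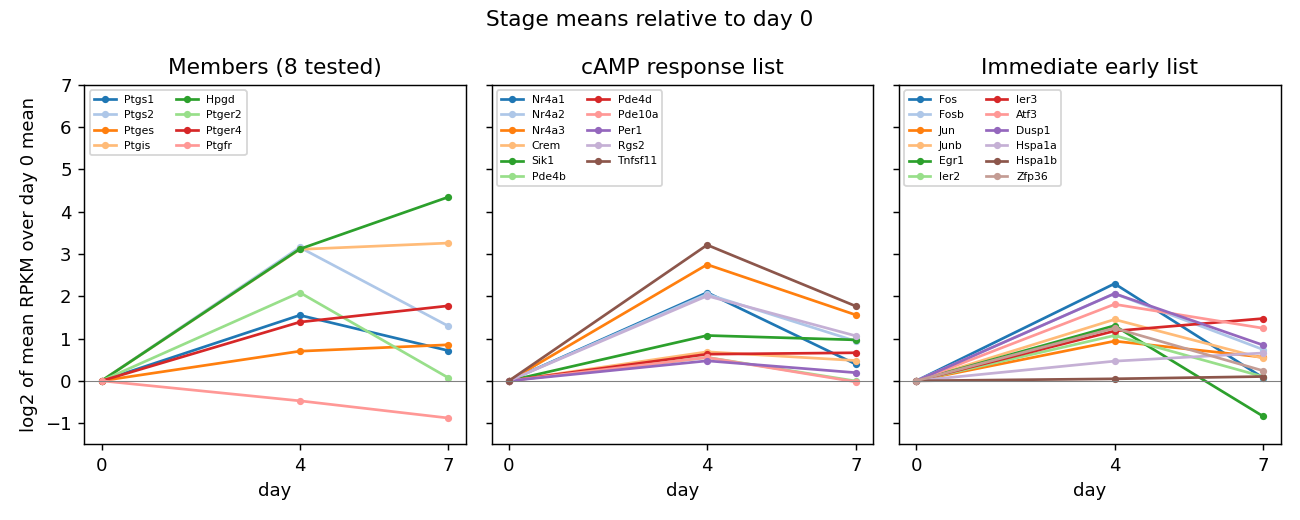
Log2 of the mean RPKM (n = 3 libraries per stage) at days 0, 4 and 7 over the day 0 mean, for the 8 tested genes of the set, 11 cAMP response genes and the 12 genes of the immediate early and digestion list. Ptgs1, Ptgs2 and Ptger2 peak at day 4, as do Tnfsf11 and most lines of both other panels, while Hpgd goes on rising to day 7.

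By profile over all 9 libraries, each of the 8 tested genes was set beside the genes that averaged 10 CPM or more, by Pearson correlation of log2(CPM + 0.5). The points share their stage, and those of day 4 share a table and a greater depth, so the coefficients describe likeness across stages. Ptgs2 was most like Adam19 (r = 0.990), the MAP kinase phosphatase Dusp1 (0.984) and Dlc1 (0.982), and Ptgs1 most like Lbh (0.991), the orphan nuclear receptor Nr4a2 (0.986) and the ETS factor Erg (0.985). Ptger2 was nearest to Trak2 (0.990), Mtmr11 (0.988) and Rin1 (0.986). The genes of the steadier rise had other neighbours. Ptgis was nearest to the lactate exporter Slc16a3 (0.998), Rhobtb1 (0.997) and the collagen prolyl hydroxylase P4ha2 (0.997), and Ptges to the glycolytic enzyme Pgam1 (0.985), Kif26a (0.984) and Higd1a (0.981). Hpgd was nearest to Fst, which encodes the activin antagonist follistatin (0.990), Myo1e (0.986) and S100a1 (0.984), and Ptger4 to the hexokinase Hk2 (0.989), D16Ertd472e (0.988) and Arsg (0.988). The number of genes with r over 0.95 was 290 for Ptgis, 186 for Ptger4, 168 for Ptges, 116 for Hpgd, 73 for Ptgs2, 68 for Ptger2, 43 for Ptgs1 and 4 for Ptgfr, whose nearest were Rnf219 (0.981), Ercc2 (0.969) and Hsd17b11 (0.955).

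A feature of the transcripts that the choice by name did not use was the pentamer ATTTA of AU-rich elements, which mark many short-lived mRNAs. In its longest annotated 3′ UTR of 2445 bases, Ptgs2 held 14 copies of ATTTA, or 5.73 per kilobase. Of 12106 genes with an annotated 3′ UTR and a mean of 1 CPM or more over the 9 libraries, 4.20% were as dense. Ptgfr also held 14, in 5122 bases (2.73 per kilobase). Hpgd held 4 in 838 bases (4.77 per kilobase, 6.79% of genes as dense) and Ptger4 5 in 1233 bases (4.06 per kilobase, 10.1%). Ptger2 held 6 in 1825 bases (3.29 per kilobase, 16.5%) and Ptger3 4 in 1933 bases (2.07 per kilobase, 34.4%), while Ptgs1, Ptges, Ptgis and Ptgds held 0. Medians over the genes were 2 copies and 1.35 per kilobase. The count did not separate the genes highest at day 4, since Ptgs2 and Ptger2 held copies and Ptgs1 held none.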

How the data were processed

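RNA was depleted of ribosomal RNA, and per the methods and the labels the authors aligned reads to Ensembl release 76 (GRCm38) with STAR 2.0.4b, and reads that aligned once and fell on a single gene were counted by featureCounts 1.4.5 (1.45 in the labels). The strand setting is not given in the sources used here. The authors deposited CPM, reads on a gene scaled to the library's reads on all genes, and RPKM, which also divides by gene length. Day 0 and day 7 share a table, with 276 repeated lines that were identical and used once, and day 4 has its own, with 273. Divided by the CPM of 1 read, 100% of the values came out whole within 0.01 in all libraries, and edgeR 4.0.16 on these reads called 2818 genes higher and 2650 lower at day 7. PCR copies were not marked, so counting intervals cover counting error only.

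CPM are not counts, so limma 3.58.1, run in R 4.3.3 with its trend option on log2(CPM + 0.5), was the test of day 7 against day 0, in genes averaging 1 CPM or more. It called 1602 genes higher and 2369 lower. With median-of-ratios scaling, which moved the median over all genes from −0.11 to −0.01 (log2), the calls were 2827 higher and 2629 lower. Prior degrees of freedom were 42.86, beside 4 residual ones, so a gene's own spread counts little in a p-value. Fold changes on this scale understate those of low genes. Ratios of RPKM within a library were compared by exact permutation tests. Pairs of replicates differed by more than counting noise (chi-square over its degrees of freedom 11.7 to 203) and were all kept. The labels do not tie libraries to pups, so p-values reach no further than the spread between these cultures. Those of limma take that spread mostly from the trend over all genes.

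The 10 genes and all lists were chosen with earlier results of these data known. Named are these 10, the gene of each list that rose most and the gene that fell most among those called, genes listed at 0 throughout, and the 3 most alike genes of each of the 8 tested. Ptger1, Ptgir, Pla2g4a, Ptges2, Ptges3, Ptgr1, Ptgr2, Runx2, Gm42418, Slc6a13, Slc22a6 and Slc22a8 were named after their values were seen. So were Hspa1a, Hspa1b, Tbx18, Crabp2 and Egfl7. Areg and Emr1, an older symbol of Adgre1, matched no row. Loci and exon overlaps are from GENCODE M21 (GRCm38), promoters from RefSeq on GRCm38.p6. Alternatives were pseudocounts of 0.1 and 1, all genes with reads, other scalings, DESeq2 1.42.0, edgeR, voomWithQualityWeights (which the methods name), robust variances, RPKM, a replicate block and leaving out each library.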

Additional observations from a re-analysis of the deposited data

How the results depend on the processing

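The calls on Ptgs1, Ptgs2, Ptges, Ptgis, Hpgd and Ptger4 held under every alternative run, with a highest adjusted p of 0.0171 (limma, for Ptgs1). The 1 lower call, Ptgfr, was 0 with DESeq2 and 0 to 1 when single libraries were left out, and with every gene with reads it was 1, but Ptgds in place of Ptgfr. The log2 fold change of Ptger2, called under no setting, ran from −0.12 (without day 0 replicate 3) to 0.23 (without day 0 replicate 1), with −0.01 without day 7 replicate 3. Genes called higher in all numbered 2827 with median-of-ratios scaling, 2818 with edgeR, 2581 with DESeq2 and 3148 with voomWithQualityWeights, against 1602, and those called lower 1527 (without day 0 replicate 2) to 4696 (without day 0 replicate 3), against 2369. In the 5 pathway lists and the cAMP list together, 14 genes were higher, against 8 (without day 7 replicate 1) to 16 with single libraries left out, 18 with DESeq2, 20 with edgeR and 21 with median-of-ratios scaling or voomWithQualityWeights, and 5 were lower, against 4 to 9 (without day 0 replicate 3) with single libraries left out. Without both day 0 replicate 3 and day 7 replicate 2, an alternative chosen after seeing the data, 9 list genes and 4232 of all genes were lower, and Ptger2 was at −0.01. The genes higher at day 7 than day 4 in every library, 1 as reported, were 2 with median-of-ratios scaling and 1 to 2 with single libraries left out, 2 without day 4 replicate 2 or day 7 replicate 3, where Ptger4 joined Hpgd. The cause of these shifts was not tested. Over the named genes and alternatives, 345 values kept their direction and side of the threshold, 9 lost the call (of Ptgfr, Fam213b and Ptprc) and 3 changed sign, all of Ptger2.

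With the replicate number as a block, 6 of the 10 genes were higher and 1 lower, as without it, and 1463 and 1950 of all genes. The deviations of same-numbered libraries from their stage means correlated at −0.02, −0.18 and −0.44. The highest correlation, 0.36, was between day 0 replicate 3 and day 7 replicate 2, the libraries with most Gm42418. Deviations from a mean of 3 libraries depend on each other, so these values cannot tell whether same-numbered libraries shared a preparation. The replicate block changed no call on the 10 genes. With 3 libraries a stage, exact tests cannot go below 0.1, and genes such as Ptgds and Ptger3, with at most 5 reads in a day 0 library, are limited by depth.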
